A study of Rattus norvegicus with 20 samples.

Results

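Spinal interneuron transcription factors were examined as a group of 10 genes, Lbx1, Lmx1b, Tlx3, Pax2, Pax8, Lhx1, Lhx5, En1, Gata2 and Gata3, chosen by their symbols. All 10 were found among the 30443 genes of the expression table. RNA was sequenced from 5 regions of 4 adult female Long-Evans rats of wild-type genotype, about 6 to 8 months old and weighing 275 to 350 g, from an outbred strain. All 4 animals carried a C4 hemi-contusion with a displacement of 0.7 mm and had electrodes implanted into the motor cortex of the other side. Of these, 2 were stimulated for 1 week, 5 hours per day, at 10 Hz and 80% of the movement threshold, and 2 were controls connected to the stimulator without current. Region 1 was subcortical white matter under the electrodes and region 2 its counterpart in the other hemisphere. Region 3 was cervical cord rostral to the lesion, region 4 the lesion itself at C4 and region 5 cord caudal to it. The labels and the study's text place region 5 at slightly different segments. No uninjured animal was among the samples, so levels at the lesion were compared with other segments of the same injured cords, and position along the cord and distance from the lesion cannot be told apart.

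The dorsal horn and ventral horn hold many classes of interneurons, and each class is built under the control of its own combination of transcription factors, some of which remain expressed in the adult. Lbx1 marks much of the dorsal horn. Lmx1b and Tlx3 specify excitatory, glutamatergic neurons there, while Pax2, Pax8, Lhx1 and Lhx5 go with an inhibitory, GABAergic or glycinergic fate. En1 marks V1 neurons, ventral inhibitory interneurons that include Renshaw cells, and Gata2 and Gata3 mark V2b neurons and cerebrospinal fluid-contacting neurons. Gata2 is also expressed in endothelium and Gata3 in T lymphocytes.

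Promoters, taken here as 250 bases before to 50 bases after the gene's start, were available for 9 of the 10 genes in RefSeq (GRCr8), all except Lhx5. The GRCr8 build differs from the Rnor6 build to which the reads were aligned. The 250 bases before the start are shown for Lbx1 and for 1 gene each of the excitatory (Lmx1b), inhibitory (Pax2) and V1 (En1) classes, because the first 3 of these genes and En1 differed in opposite directions between regions 3 and 4. Capitals mark CG dinucleotides, and each sequence reads 5′ to 3′ on the strand of its gene.
Lbx1, chr1:254034827-254035076, minus strand: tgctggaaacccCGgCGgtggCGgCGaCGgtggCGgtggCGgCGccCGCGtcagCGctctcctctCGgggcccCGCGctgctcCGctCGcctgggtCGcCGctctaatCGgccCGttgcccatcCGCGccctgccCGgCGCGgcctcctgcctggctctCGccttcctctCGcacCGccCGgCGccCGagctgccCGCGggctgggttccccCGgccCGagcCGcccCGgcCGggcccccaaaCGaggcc
Lmx1b, chr3:37338558-37338807, minus strand: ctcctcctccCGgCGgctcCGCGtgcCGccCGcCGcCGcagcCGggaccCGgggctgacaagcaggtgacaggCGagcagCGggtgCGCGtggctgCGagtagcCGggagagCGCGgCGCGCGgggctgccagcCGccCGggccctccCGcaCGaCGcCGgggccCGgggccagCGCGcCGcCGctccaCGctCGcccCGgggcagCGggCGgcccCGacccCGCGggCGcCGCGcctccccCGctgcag
Pax2, chr1:253565672-253565921, plus strand: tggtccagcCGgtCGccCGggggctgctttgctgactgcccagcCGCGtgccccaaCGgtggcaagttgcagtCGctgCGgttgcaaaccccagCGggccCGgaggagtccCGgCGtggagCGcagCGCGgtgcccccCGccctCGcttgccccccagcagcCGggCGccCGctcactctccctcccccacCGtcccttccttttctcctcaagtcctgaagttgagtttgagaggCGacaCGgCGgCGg
En1, chr13:34303434-34303683, plus strand: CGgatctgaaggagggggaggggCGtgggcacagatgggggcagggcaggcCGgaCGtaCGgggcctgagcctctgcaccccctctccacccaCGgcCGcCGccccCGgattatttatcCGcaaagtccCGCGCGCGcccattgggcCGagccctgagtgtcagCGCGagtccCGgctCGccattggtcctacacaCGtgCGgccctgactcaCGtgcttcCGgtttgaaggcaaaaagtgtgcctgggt
Over the full 300 bases, the Lmx1b promoter held 54 CG dinucleotides, Lbx1 46, Pax2 29 and En1 25, against a median of 7 in 33469 rat promoters. Their GC contents were 84.7, 78.7, 70.3 and 62.0%, and the median of all promoters was 51.7%. The other 5 promoters held 23 (Lhx1), 20 (Gata3), 18 (Tlx3), 16 (Gata2) and 11 (Pax8). Motifs were searched as exact letters on both strands. The TATA box letters TATAAA were found in 0 of the 9 promoters and in 14.2% of all promoters. A homeodomain core, TAATTA, was likewise in 0 of 9 and in 5.36% of all. A form of the GATA motif, AGATAA, was in 0 of 9 and in 11.6% of all promoters. In the RefSeq gene order of chromosome 1, Lbx1 lay between Tlx1 and Btrc and Pax2 between Hif1an and Slf2.

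Each region had 4 libraries, 1 from each animal, so the 5 regions gave 20 libraries. Values are FPKM, fragments normalized to the length of the transcript and to all mapped fragments, and in the deposited table no value lies under 0.1 FPKM. A gene at this floor has no measured level there, and a fold against it is a lower bound. Read numbers cannot be had from FPKM, so the depth behind a value is unknown and error is the spread between animals. Labelled subcortical white matter also held genes of cortical neurons. A list of 5 cortical neuron markers summed to between 258 and 378 FPKM in the 8 libraries of regions 1 and 2, against 1.51 to 14.6 in the cord. In the cord, the highest of these sums was in region 3, where the glutamate transporter gene Slc17a7 was at 11.8 FPKM in control animal 2 and between 0.689 and 2.78 in the other animals. That library stood apart, and differences of region 3 that passed the threshold are also given without control animal 2. These are bulk tissue samples, in which fewer cells of a type and less RNA per cell cannot be told apart.

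**Figure D1:**
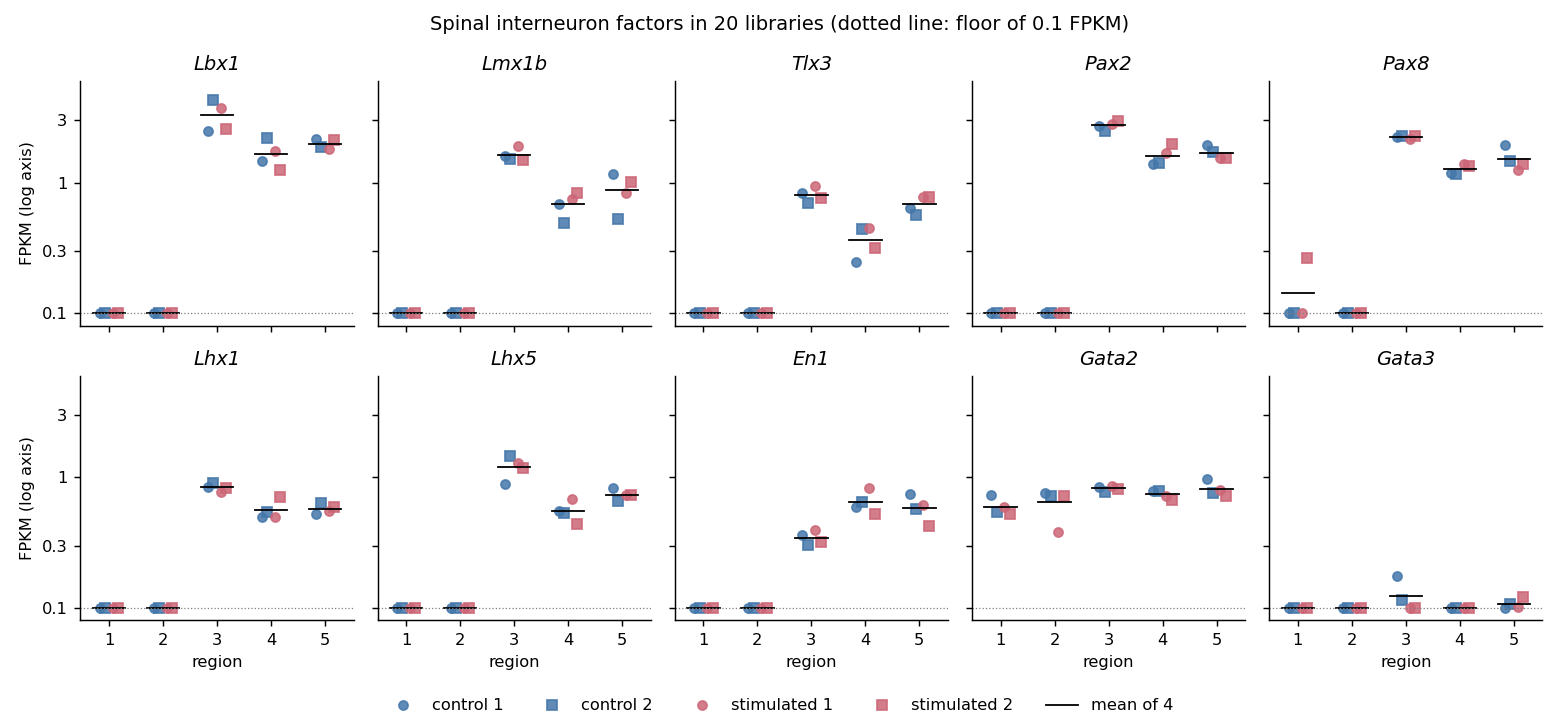
FPKM of the 10 factors (log axis) in regions 1 to 5. Each point is 1 library, colors separate control from stimulated animals, shapes separate the animals of a group, black bars are means of 4 libraries and the dotted line is the floor of 0.1 FPKM. In regions 1 and 2, points lie on the floor for every gene except Gata2 and 1 library of Pax8, while in the cord all genes but Gata3 lie above it.

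Interneuron factors separated cord from white matter. In the fit without a filter on low values, which was the only one to test all 10 genes, 9 were higher in the 12 cord libraries than in the 8 white matter libraries and 0 were lower (limma, Benjamini-Hochberg adjusted p under 0.05). Of all 30443 genes, 26% were higher and 14.9% lower in that fit, and the median log2 fold change, with values against the floor as lower bounds, was 2.82 over the 10 genes and 0.00 over all genes. Only 5 of the 10 reached 1 FPKM in any library and entered the fit with the filter, in which 47.1% of the 15210 genes tested were higher and 25% lower. Those 5 (Lbx1, Lmx1b, Pax2, Pax8 and Lhx5) passed through cord libraries alone, so their count there is not given as a result. Lbx1 was at 0.1 FPKM in all 8 white matter libraries and ran from 1.25 to 4.33 in the cord, with a median of 2.12. Its cord mean was at least 23.1-fold higher. Pax2 likewise stood at the floor in all 8 and ran from 1.39 to 2.97 in the cord, median 1.82, at least 20.1-fold higher. The bounds were 10.7-fold for Lmx1b, 8.30-fold for Lhx5, 6.58-fold for Lhx1, 6.19-fold for Tlx3 and 5.27-fold for En1, and each of these genes was at the floor throughout white matter. Pax8 was above the floor in 1 white matter library, at 0.264 FPKM in region 1 of stimulated animal 2, and its cord mean was 13.9-fold the white matter mean. For these 8 genes the lowest cord library lay above the highest white matter library, which held for 9.25% of all genes in the table.

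Both GATA factors behaved otherwise. Gata2 was above the floor in every library, with 0.619 ± 0.133 FPKM over the 8 white matter libraries and 0.792 ± 0.0786 over the 12 cord libraries (SD), and the ranges overlapped. Its log2 fold change was 0.38 (limma adjusted p = 0.0166 without the filter, SE 0.12). The call was lost after quantile normalization, with a log2 fold change of 0.14 (limma adjusted p = 0.458), with upper-quartile scaling (0.29, limma adjusted p = 0.0699), and without control animal 2 (0.41, limma adjusted p = 0.0804) or stimulated animal 1 (0.27, limma adjusted p = 0.0856). Over the alternatives its adjusted p ran from 0.00867 to 0.458. Endothelium also expresses Gata2, and a list of 9 endothelial genes summed to 41.4 to 84.5 FPKM in white matter and 61.0 to 97.2 in cord, and its part in Gata2 was not tested. Gata3 was listed at the floor in all 8 white matter libraries and in 7 of the 12 cord libraries, with a highest value of 0.175 FPKM. The log2 fold change of Gata3 was 0.12 (limma adjusted p = 0.320). Genes of T and innate lymphoid cells, which share Gata3, summed to 0.918 to 9.32 FPKM in white matter and 1.47 to 3.95 in cord. Markers of cerebrospinal fluid-contacting neurons, Pkd2l1 and Pkd1l2, were at the floor in white matter and summed to 0.535 to 1.74 FPKM in the cord. Regions 1 and 2 could be compared only for Gata2 and Pax8, since the other 8 genes were at the floor in all 8 libraries, and neither passed the threshold. Of all genes tested, 8.61% differed between these regions with the filter and 2.29% without it.

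Within the cord, Lbx1 and the Pax genes were the most abundant of the 10. In region 3, mean FPKM was 3.28 for Lbx1, 2.74 for Pax2, 2.24 for Pax8, 1.63 for Lmx1b, 1.20 for Lhx5, 0.839 for Lhx1, 0.823 for Gata2, 0.808 for Tlx3, 0.344 for En1 and 0.123 for Gata3. Of the neighbors in this order, Lbx1 and Pax2, Lhx5 and Lhx1, Lhx1 and Gata2, and Gata2 and Tlx3 overlapped in range. Lbx1, Pax2 and Pax8 were also the leading 3 genes in regions 4 and 5, where Lbx1 overlapped Pax2 in both. Lmx1b was the fourth in region 3 and the fifth in region 4, Lhx5 the fifth and the eighth, and En1 the ninth and the sixth, and in region 4 the ranges of neighbors from the fourth to the ninth place overlapped. Gata3 was the lowest of the 10 in every cord region.

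Between region 3 and the lesion, 6 of the 10 genes were higher in region 3 and 1 was lower without the filter, where 4.98% of all genes were higher and 2.42% lower. The median log2 fold change of the 10 genes was 0.80 and that of all genes was 0.00. With the filter, 12.8% of all genes were higher and 6.78% lower. Lhx5 entered that fit through region 3 alone and Lmx1b through regions 3 and 5, so no count of members is given for it, and both genes are reported without the filter. Apart from Gata2 and Gata3, each gene differed in the same direction in 4 of 4 animals without overlap of the regions, 7 of them higher in region 3 and 1 lower. The same pattern was found in 8.33% of all genes for higher and 7.83% for lower values in region 3.

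Lbx1, the general dorsal horn factor, was at 2.50 and 4.33 FPKM in region 3 of control animals 1 and 2 and at 3.71 and 2.58 in stimulated animals 1 and 2. In region 4 the same animals had 1.46, 2.2, 1.73 and 1.25. Each animal was lower at the lesion, with a log2 fold change of 0.97 for region 3 over region 4 (limma adjusted p = 0.00233, SE 0.19). Of the excitatory factors, Lmx1b was at 1.60, 1.52, 1.91 and 1.49 FPKM in region 3 of these animals and at 0.688, 0.487, 0.745 and 0.827 in region 4. This was the largest difference among the 10, a log2 fold change of 1.27 (limma adjusted p = 0.00147 without the filter, SE 0.20). Tlx3 was at 0.835, 0.690, 0.939 and 0.767 in region 3 and 0.246, 0.441, 0.445 and 0.315 in region 4, a log2 fold change of 1.19 (limma adjusted p = 0.000613 without the filter, SE 0.16). In mean FPKM, region 3 was 2.37-fold higher for Lmx1b and 2.23-fold for Tlx3.

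The inhibitory factors were also higher in region 3. Pax2, which is needed for the GABAergic fate, was at 2.73, 2.47, 2.79 and 2.97 FPKM in region 3 of control animals 1 and 2 and stimulated animals 1 and 2, and at 1.39, 1.40, 1.67 and 1.96 in region 4. Its log2 fold change was 0.78 (limma adjusted p = 0.00202, SE 0.15). Pax8, a close relative of Pax2, lay within 2.16 to 2.29 in region 3 and 1.17 to 1.38 in region 4, a log2 fold change of 0.82 (limma adjusted p = 0.0299 with the filter and 0.0535 without it, SE 0.25). Of the LIM-homeodomain pair, Lhx5 was at 0.896, 1.45, 1.29 and 1.17 FPKM in region 3 and 0.550, 0.532, 0.679 and 0.441 in region 4, a log2 fold change of 1.12 (limma adjusted p = 0.000274 without the filter, SE 0.13). Lhx1 was at 0.838, 0.912, 0.771 and 0.836 in region 3 and 0.492, 0.543, 0.498 and 0.706 in region 4, a log2 fold change of 0.60 (limma adjusted p = 0.00163 without the filter, SE 0.09).

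En1, the V1 factor, went the other way. It was at 0.361, 0.303, 0.397 and 0.317 FPKM in region 3 of control animals 1 and 2 and stimulated animals 1 and 2, and at 0.595, 0.647, 0.835 and 0.526 in region 4. Every region 4 library was above every region 3 library, and the log2 fold change for region 3 over region 4 was -0.90 (limma adjusted p = 0.00197 without the filter, SE 0.15). En1 was also higher in region 5, at 0.746, 0.571, 0.610 and 0.422, and regions 4 and 5 overlapped. Gata2 differed between regions 3 and 4 by 0.15 (limma adjusted p = 0.914, SE 0.19) and Gata3 by 0.25 (limma adjusted p = 0.275, SE 0.12), both without the filter. Without control animal 2, whose region 3 library stood apart, Lmx1b (limma adjusted p = 0.00945), Tlx3 (0.0109), Lhx5 (0.0277) and Lbx1 (0.0399) remained called without the filter, and with it the adjusted p of Lhx5 was 0.0634. Pax2 was at 0.0528 without the filter and 0.0495 with it. The calls of Lhx1 (0.55, limma adjusted p = 0.0743), En1 (-0.84, limma adjusted p = 0.0953) and Pax8 (0.77, limma adjusted p = 0.206) were lost. Pax8 was also lost without control animal 1 (limma adjusted p = 0.151) or stimulated animal 1 (limma adjusted p = 0.101). In the fit without the filter, Lbx1 lost its call without stimulated animal 1 (0.93, limma adjusted p = 0.0708).

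Each SE pools the spread within all 5 regions. For Lbx1, Lmx1b, Tlx3, Pax2, Lhx1, Lhx5 and En1 the 8 white matter libraries lie at the floor with an SD of 0 and lower it, while for Pax8 a single white matter library above the floor raises it. The fit was therefore repeated with the 12 cord libraries alone, without the filter, an alternative added after the data had been seen. All 7 genes called between regions 3 and 4 remained called, with limma adjusted p from 0.00358 (Pax2) to 0.0176 (Lhx1), and Pax8 was also called (0.00292).

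**Figure D2:**
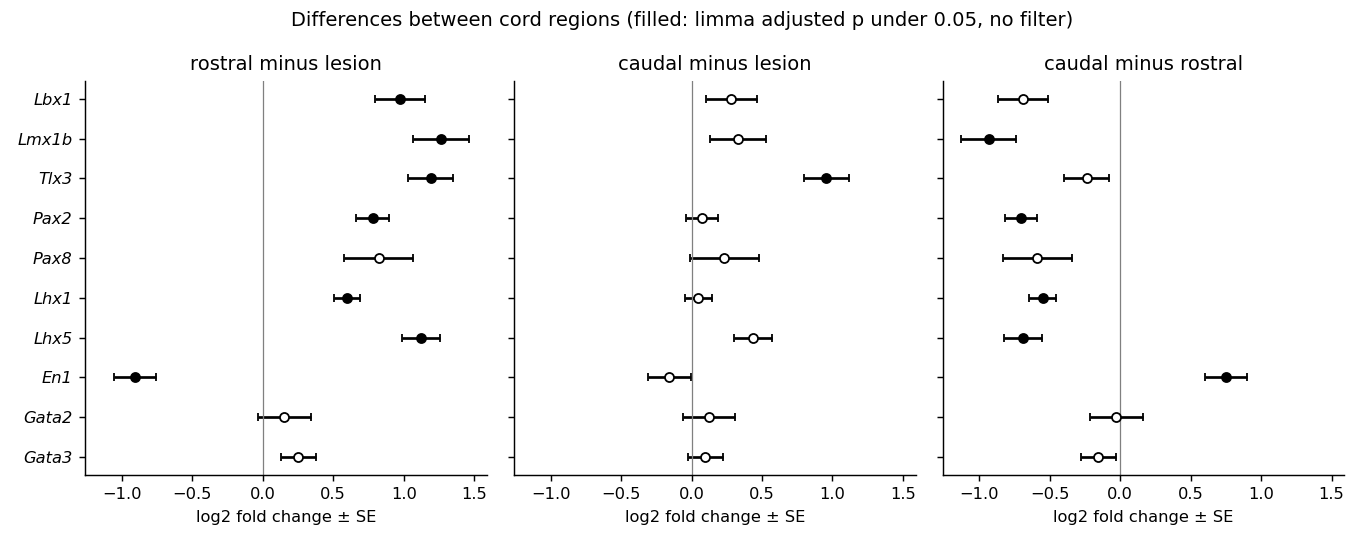
Log2 fold changes of the 10 factors between cord regions, with the SE of the limma fit without a filter. Filled points passed an adjusted p of 0.05 in that fit. In the left panel 7 points are filled, with En1 at -0.90 opposite to the others, and in the middle panel only Tlx3 is filled.

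Other cell types moved between regions 3 and 4 as well. Of 10 general neuron genes, 5 were higher in region 3 and 0 lower without the filter, with a median log2 fold change of 0.63, and their summed level was 1402 to 1731 FPKM in region 3 and 1019 to 1308 in region 4. A list of 6 phagocyte and microglia genes summed to 92.1 to 153 FPKM in region 3 and 318 to 873 in region 4. Oligodendrocyte genes had a median log2 fold change of 0.01 and endothelial genes of -0.03. On a scale set relative to the mean log2 level of the 10 neuron genes of each library, added after the data had been seen, the median of all genes was -0.54, with 78.5% of them lower in region 3 and 0.851% higher. On it Lmx1b was at 0.72, Tlx3 at 0.65, Lhx5 at 0.58, Lbx1 at 0.43, Pax8 at 0.28, Pax2 at 0.24, Lhx1 at 0.06 and En1 at -1.45, and the shift is common to all genes. Which genes passed the threshold on this scale is not given. Over all alternatives, each a single change and this scale among them, the highest limma adjusted p was 0.806 for Lhx1, 0.401 for Pax8 and 0.227 for Pax2. It was 0.0953 for En1, 0.0634 for Lhx5, 0.0498 for Lbx1, 0.0314 for Lmx1b and 0.0191 for Tlx3. Motor neuron genes, which like En1 mark the ventral horn, summed to 16.8 to 21.0 FPKM in region 3, 21.1 to 28.5 in region 4 and 36.6 to 40.6 in region 5. Fibroblast genes, another class in which En1 can be expressed, summed to 24.7 to 38.2, 36.1 to 67.8 and 44.8 to 146, with Col1a2 listed at the floor in every library. In region 5 the library of stimulated animal 2 had the highest fibroblast sum, 146 FPKM, and the lowest En1, 0.422 FPKM, while in region 4 the library of the same animal had the lowest of both, 36.1 and 0.526 FPKM. The part of these cell types in the differences was not tested.

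**Figure D3:**
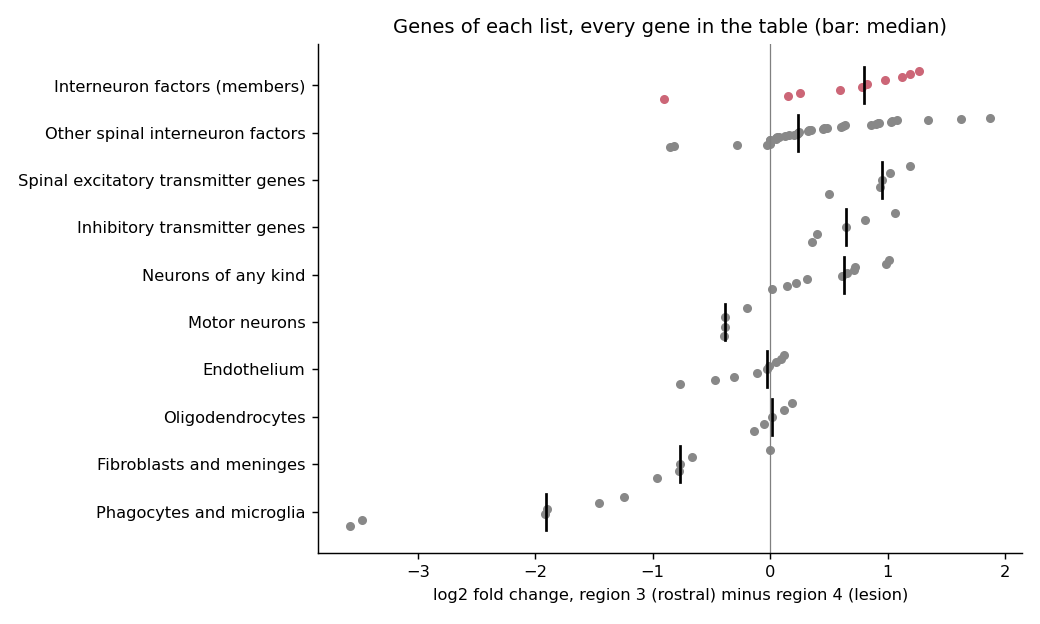
Log2 fold change of region 3 over region 4 for the 10 factors (red) and for genes of 9 other lists (grey), 1 point per gene in the table. Black bars are medians, 0.80 for the 10 factors, 0.63 for neurons of any kind and -1.91 for phagocytes and microglia.

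Caudal to the lesion, Tlx3 alone of the 10 genes passed the threshold against region 4. Between regions 5 and 4, none of the 5 genes tested with the filter differed and none had an unadjusted p under 0.05, where 7.06% of all genes were higher in region 5 and 0.934% lower. Without the filter, 1 of the 10 was higher, Tlx3, and 0 were lower, against 1.5% of all genes higher and 0.397% lower. Tlx3 was at 0.634, 0.564, 0.776 and 0.778 FPKM in region 5 of control animals 1 and 2 and stimulated animals 1 and 2, all above the 4 region 4 libraries. Its log2 fold change for region 5 over region 4 was 0.96 (limma adjusted p = 0.0111 without the filter, SE 0.16). The call was lost without control animal 1 (0.82, limma adjusted p = 0.163) and without stimulated animal 2 (0.84, limma adjusted p = 0.0808). With the cord libraries alone the adjusted p was 0.0490. Tlx3 is also expressed in sensory ganglia, and a list of 7 sensory ganglion genes summed to 23.7 to 28.2 FPKM in region 3, 28.2 to 37.1 in region 4 and 59.1 to 101 in region 5. Within region 5 the sum was 84.4 and 101 FPKM in the stimulated animals, which had the higher Tlx3, and 60.1 and 59.1 in the control animals. Region 3 had the highest mean of Tlx3 and the lowest mean of that sum. The part of ganglion RNA in region 5 was not tested. Lhx5 differed by 0.43 and was higher in region 5 in 4 of 4 animals, with overlap of the regions. Its unadjusted limma p without the filter was 0.00538 (limma adjusted p = 0.0989, SE 0.13). With the filter its adjusted p was 0.183 (SE 0.21). The other 8 genes differed by between -0.16 (En1) and 0.33 (Lmx1b, also higher in 4 of 4 animals).

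Between regions 5 and 3, 4 genes were lower in region 5 and 1 was higher without the filter, against 0.539% of all genes lower and 0.946% higher. With the filter, 1.55% of all genes were lower and 2.77% higher, and no count of members is given, since Lhx5 entered through region 3 alone. The medians of the 10 genes and of all genes were -0.57 and 0.00 without the filter. Lmx1b, at 1.16, 0.529, 0.838 and 1.00 FPKM in region 5 of control animals 1 and 2 and stimulated animals 1 and 2, had a log2 fold change of -0.93 (limma adjusted p = 0.0278 without the filter, SE 0.20). Pax2, at 1.95, 1.70, 1.54 and 1.54, had -0.71 (limma adjusted p = 0.0141, SE 0.15). Both were below all 4 region 3 libraries. Lhx1 (-0.55, limma adjusted p = 0.00909) and Lhx5 (-0.69, limma adjusted p = 0.0187) were lower without the filter, while Lhx5 did not pass with it (limma adjusted p = 0.0717). En1 was higher by 0.75 (limma adjusted p = 0.0214 without the filter). Lbx1 was at -0.69 (limma adjusted p = 0.0510), and with the animal as a replicate block its adjusted p was 0.0435. Pax8 had a log2 fold change of -0.59 (limma adjusted p = 0.165) and Tlx3 of -0.24 (limma adjusted p = 0.581, SE 0.16). Lbx1, Lmx1b, Pax2, Pax8, Lhx1 and Lhx5 were lower in region 5 in 4 of 4 animals and En1 was higher in 4 of 4. Without control animal 2, Lmx1b was at -0.74 (limma adjusted p = 0.0699 without the filter), Pax2 at -0.76 (0.0992 with it), Lhx1 at -0.56 (0.103), Lhx5 at -0.54 (0.221) and En1 at 0.69 (0.213), so that no call remained. The calls of Lmx1b, Pax2, Lhx1 and En1 were also lost without control animal 1 or stimulated animal 1. Lhx5 kept its call without control animal 1 (0.0272) and lost it without stimulated animal 1 (0.191) or stimulated animal 2 (0.0653), and that of Lmx1b was lost without stimulated animal 2 as well (0.0622 without the filter and 0.0214 with it). With the 12 cord libraries alone and no filter, Pax2 (limma adjusted p = 0.0234) and Pax8 (0.0356) were called, and Lhx1 (0.0563), Lhx5 (0.0633), En1 (0.0701) and Lmx1b (0.0703) were not.

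Ratios between factors within a library are free of the scaling between libraries. The ratio of En1 to Pax2 was 0.126 ± 0.0151 in region 3, 0.414 ± 0.101 in region 4 and 0.347 ± 0.0551 in region 5 (SD, n = 4 libraries each). The highest ratio in region 3 was 0.142 and the lowest in regions 4 and 5 was 0.268, so region 3 did not overlap the others. In contrast, the ratio of Pax8 to Pax2, a pair of inhibitory factors, was 0.824 ± 0.0732, 0.800 ± 0.0781 and 0.893 ± 0.0794 in regions 3, 4 and 5, and all 3 regions overlapped. Tlx3 plus Lmx1b over Pax2 plus Pax8, an excitatory to inhibitory ratio, was 0.490 ± 0.0612 in region 3 and 0.364 ± 0.0181 in region 4, and its lowest value in region 3, 0.431, was above the highest in region 4, 0.389. In region 5 it was 0.498 ± 0.120, with a range of 0.345 to 0.606 that covered both. Lhx5 over Lhx1 was 1.43 ± 0.269, 1.02 ± 0.308 and 1.30 ± 0.231 and overlapped in all regions. Tlx3 over Lmx1b was 0.496 ± 0.0301, 0.561 ± 0.255 and 0.828 ± 0.223, and in region 5 every library was above every region 3 library.

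**Figure D4:**
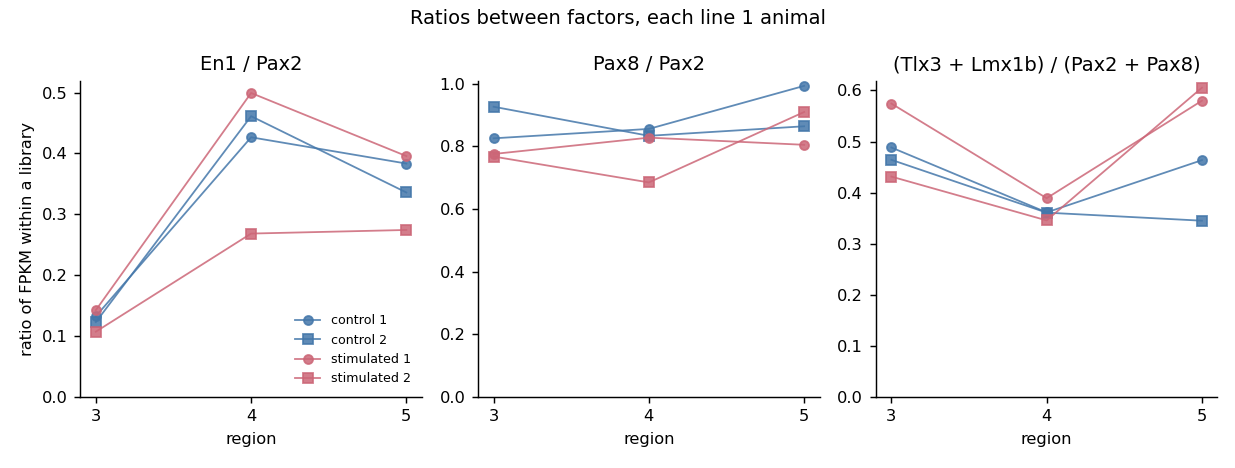
Ratios of FPKM within each of the 12 cord libraries, with 1 line per animal across regions 3, 4 and 5. En1 over Pax2 is at most 0.142 in region 3 and at least 0.268 elsewhere, Pax8 over Pax2 overlaps in all regions, and the excitatory to inhibitory ratio is lowest at the lesion in 3 of 4 animals.

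Correlations between the factors were taken across the 12 cord libraries, which come from 3 regions of 4 animals and so share both region and animal. Pearson correlations of log2 FPKM were 0.938 for Pax2 with Pax8, 0.913 for Lbx1 with Lhx5, and 0.884 for Lmx1b with Pax8. Pairs that held Gata2 or Gata3, other than those with En1, ran from 0.032 (Lhx1 with Gata2) to 0.527 (Pax8 with Gata2), and Gata2 with Gata3 was at 0.094. En1 had negative correlations with every other factor, from -0.91 with Lhx1 to -0.01 with Gata2. Lmx1b correlated at 0.662 with Tlx3, its partner in excitatory neurons, and at 0.869 with Pax2 of the inhibitory class. For the 4 factors with a cord mean of at least 1 FPKM, the genes of the table most like them over the 12 libraries were also found. The most similar to Lbx1 were Efnb3 (r = 0.974), the peptide precursor gene Cartpt (0.963) and Tmie (0.960). Enc1 (0.961), Prdm11 (0.961) and Cpne5 (0.958) were closest to Lmx1b. Galr1, a galanin receptor (0.966), Camk2a, a calmodulin-dependent kinase (0.966), and Ebf3 (0.962) were closest to Pax2. Pax8 was closest to the adenylyl cyclase gene Adcy1 (0.981), Ptprt (0.976) and the T-type calcium channel gene Cacna1g (0.973). These 12 genes were chosen for their likeness out of all genes kept.

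Of 43 other spinal interneuron factors on a list, 41 were in the table, and Maf, Rorb, Zic1, Satb1 and Sall3 had the highest cord means, 8.07, 7.04, 6.16, 5.45 and 3.33 FPKM. Each of these 5 was also above the floor in all 8 white matter libraries, unlike the members other than Gata2. Between regions 3 and 4, 9 of the 41 were higher in region 3 and 0 lower without the filter, with a median log2 fold change of 0.24. Of all genes, 4.98% were higher and 2.42% lower in that fit. With the filter, 7 of 17 were higher and 1 lower, against 12.8% and 6.78% of all genes. Skor1 entered the filter through region 3 alone and Pou4f1 through regions 3 and 5, so the count with the filter is not read as a result. The largest of those that passed the filter were Pou4f1 (1.88, limma adjusted p = 0.00235), Lhx2 (1.63, limma adjusted p = 6.43e-05) and the dorsal horn factor Drgx (1.03, limma adjusted p = 0.00162). Gbx1 (1.34, limma adjusted p = 0.00116) and Otp (1.08, limma adjusted p = 0.00758), both under the filter and named after their values were seen, were called without it. Without control animal 2, Pou4f1 was at 1.25 (limma adjusted p = 0.0384), Lhx2 at 1.45 (0.00889) and Drgx at 0.95 (0.0347), all with the filter, and the calls of Gbx1 (1.29, 0.0617) and Otp (1.09, 0.080) were lost. Pou4f1 was at 4.22 FPKM in the region 3 library of control animal 2 and 1.16 to 1.34 in the other animals, all above the highest region 4 value of 0.686. Lhx2, at 9.18 FPKM in region 1 and 10.8 in region 2, was between 0.244 and 0.448 in region 3 and listed at the floor in regions 4 and 5. Maf was lower in region 3 (-0.82, limma adjusted p = 0.0272, and 0.125 without control animal 2), at 5.57 ± 0.247 FPKM against 10.1 ± 2.81 in region 4 (SD, n = 4). Isl1, a factor of motor and sensory neurons, was at 0.522 and 0.495 FPKM in region 5 of the control animals, at 1.17 and 1.04 in the stimulated animals and at 0.226 to 0.421 in region 4. Its log2 fold change for region 5 over region 4 was 1.21 (limma adjusted p = 0.0510 without the filter, not called). Isl1 reached 1 FPKM only in region 5 of the stimulated animals. Its adjusted p with the filter, 0.0438, is therefore not read as a result. The stimulated animals of region 5 also had the higher sums of sensory ganglion genes given above, and the part of ganglion RNA in Isl1 was not tested. Between regions 5 and 3, Lhx2 (-1.63, limma adjusted p = 6.17e-05) was lower in region 5 with the filter and remained called without control animal 2 (0.00803). Skor1 was lower without the filter (-0.75, limma adjusted p = 0.00126). It entered the filter through region 3 alone, so its adjusted p with the filter, 0.0360, is not read as a result. Without control animal 2 that value was 0.191. Without the filter Gbx1 (-1.26, limma adjusted p = 0.00552) and Prdm13 (-1.11, limma adjusted p = 0.0094), named after their values were seen, were lower as well, and Prdm13 was listed at the floor in all 4 region 5 libraries. Both of these calls were lost without control animal 2 (0.0888 and 0.153). Pou4f1, Drgx, Gbx1, Otp, Skor1 and Prdm13 were at the floor in all 8 white matter libraries, and Lhx2 in regions 4 and 5. Libraries at the floor lower the pooled SE of these genes, and no fit of the cord alone is given for them.

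Genes that carry out the transmitter phenotypes of these neurons were compared beside the factors. All 5 spinal excitatory genes were higher in region 3 than in region 4 in both fits, with a median log2 fold change of 0.96. Slc17a6, the vesicular glutamate transporter of most dorsal horn excitatory neurons, was at 36.7 ± 5.84 FPKM in region 3 and 19.2 ± 2.50 in region 4 (SD, n = 4), a log2 fold change of 0.93 (limma adjusted p = 0.000412, SE 0.14). Of 5 inhibitory genes, 4 were higher with the filter and 3 without it, and 0 were lower, with a median of 0.64. Gad2 had a log2 fold change of 1.06 (limma adjusted p = 0.000581, SE 0.17), Gad1 0.81 (limma adjusted p = 0.000656) and Slc32a1, the vesicular GABA and glycine transporter gene, 0.64 (limma adjusted p = 0.00231). Without control animal 2, Slc17a6 (0.80, limma adjusted p = 0.0291), Gad2 (0.93, limma adjusted p = 0.0369) and Gad1 (0.73, limma adjusted p = 0.0375) remained called with the filter and Slc32a1 (0.57, limma adjusted p = 0.0778) did not. Without the filter these adjusted p were 0.0764, 0.0987, 0.0953 and 0.184. The glycine transporter gene Slc6a5 was at 37.0 ± 3.11 and 28.0 ± 2.24 FPKM, and its log2 fold change of 0.40 did not pass the threshold (limma adjusted p = 0.447, SE 0.35). That SE pools the spread of all 5 regions, and Slc6a5 varied in white matter, at 2.17 ± 1.45 FPKM in region 1. No fit of the cord alone is given for it, so the missing call does not show an equal level.

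Stimulated and control animals were compared in each region and over the mean of the 3 cord regions of each animal. None of the 10 factors passed the threshold in any of these comparisons, with or without the filter, and none had an unadjusted p under 0.05 in limma. With the filter, the share of all genes that passed was 0% in regions 1 to 4 and in the cord mean and 0.0197% in region 5. Without it, regions 1 and 2 had shares of 0.0197 and 0.00328%, regions 3, 4 and 5 of 0.00985, 0 and 0.0723%, and the cord mean of 0.0263%. In the mean of the cord regions, the log2 difference of stimulated from control animals ran from -0.14 (Lbx1, SE 0.19) to 0.26 (Lmx1b, SE 0.22), each with a limma adjusted p of 1. Pax2 was at 0.09 (SE 0.11), Tlx3 at 0.24 (SE 0.18) and En1 at -0.05 (SE 0.26, both without the filter). With 2 animals against 2, the smallest two-sided p an exact permutation test can give is 0.333.

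Of the 30 pairs of gene and cord region, the stimulated animals lay above the control animals without overlap in 5 and below them in 5. By region this was 3 of 10 genes in region 3, 4 of 10 in region 4 and 3 of 10 in region 5, where 19, 14 and 16.5% of all genes did not overlap in either direction. Those shares cover all 30443 genes, with 39.7% of values at the floor, where tied animals cannot lie apart. For a gene without ties, 2 animals against 2 lie apart by chance with a probability of 0.333. The counts are therefore not read as a result about the members. Pax2 differed in direction between regions. In region 4 it was at 1.39 and 1.40 FPKM in the control animals and at 1.67 and 1.96 in the stimulated animals, and in region 3 at 2.73 and 2.47 against 2.79 and 2.97. In region 5 it was at 1.95 and 1.70 in the control animals and 1.54 in both stimulated animals. Pax8 was at 1.19 and 1.17 against 1.38 and 1.34 in region 4 and at 1.93 and 1.47 against 1.24 and 1.40 in region 5. The other pairs without overlap were Lmx1b in region 4 and Tlx3 in region 5, higher in stimulated animals, and Lhx1 in region 3, Gata2 in region 4 and Gata3 in region 3, lower in them. Beside Tlx3 in region 5, the sums of sensory ganglion genes were 84.4 and 101 FPKM in the stimulated animals and 60.1 and 59.1 in the control animals, and their part in it was not tested. Gata3 in region 3 was listed at the floor in both stimulated animals and at 0.175 and 0.115 in the control animals. None of the 41 other interneuron factors passed the threshold with stimulation in regions 2 to 5 or in the cord mean, in either fit. In region 1, 1 of the 41 was called without the filter, Phox2a. The stimulated animals had 0.147 and 0.146 FPKM of it there, and the controls were listed at the floor (limma adjusted p = 0.0144, SE 0.0036). These values lie near the floor. In that fit a gene at the floor in all its libraries, such as Lbx1, had an SE of 0.00029. The spread is therefore poorly known, and the call is not read as an effect of stimulation.

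**Figure D5:**
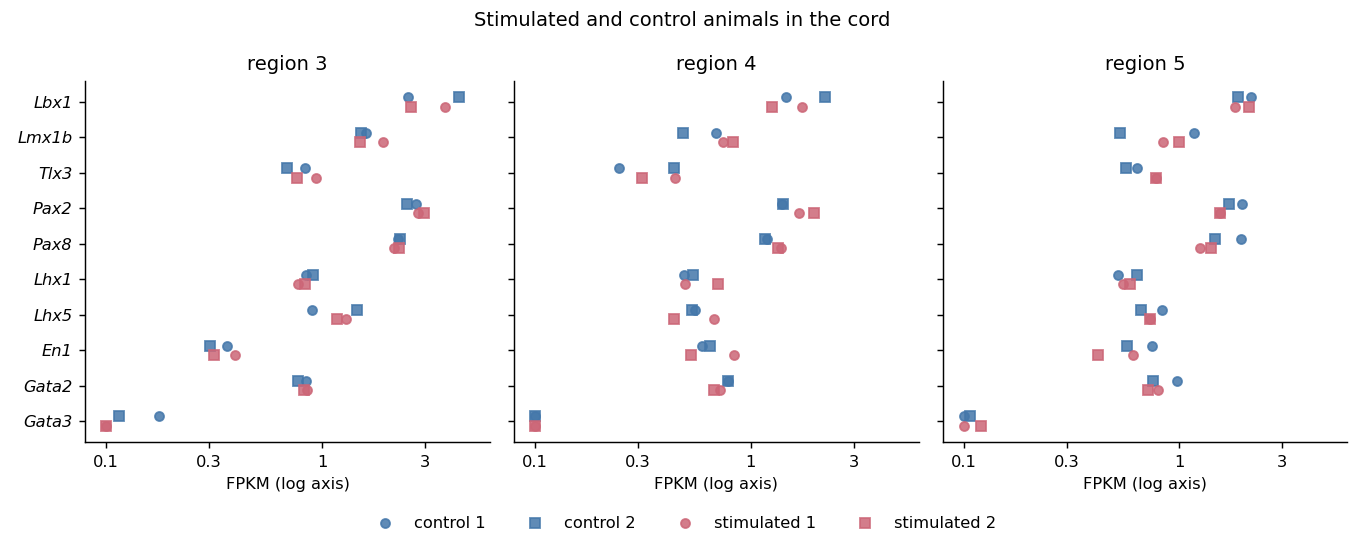
FPKM (log axis) of the 10 factors in regions 3, 4 and 5, with control animals in blue above and stimulated animals in red below for each gene, and 1 point per animal. Points of the groups interleave for most genes, and Pax2 lies to the right in stimulated animals in region 4 and to the left in region 5.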

How the data were processed

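RNA from 20 tissue samples (5 regions of 4 rats) was depleted of ribosomal RNA and sequenced as paired 51 bp reads with a stranded kit. The authors used TopHat2 2.1.0 with the Rnor6 build, and the deposited FPKM values come from Cufflinks 2.2.1, with values under 0.1 raised to 0.1 (39.7% of the table). The submitters' notes also list FastQC and MultiQC 1.6. The annotation version and the strand used in counting are not given in the sources used here, so overlapping and antisense genes are uncertain. Every column was matched to a sample by its title. FPKM values hold no read counts, so the depth per value is unknown.

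Values were floored at 0.1 and log2-transformed. Genes of at least 1 FPKM in any library were kept (15210 of 30443), and linear models were fitted in R 4.3.3 with limma 3.58.1 (lmFit, then eBayes with a trend). Regions were contrasted in a model of all 20 libraries that gave each region a mean, and stimulation in the 4 libraries of a region or in 4 cord means, 1 per animal. The fit without the filter was a listed alternative and is used where members fail the filter. Adjusted p-values (Benjamini-Hochberg, over every gene in the fit) had a threshold of 0.05. Fits were tested on simulated data. Descriptions and plots were made in Python 3.11.15 with pandas 2.3.3, numpy 2.4.6 and matplotlib 3.10.9. The 10 members, the lists and the tests were chosen with earlier results of these data known. All 10 members are named, of the other interneuron factors the 5 most abundant in cord and up to 3 of the largest called changes per comparison, and of the genes most like a member the nearest 3. Transmitter and marker genes come from the lists, and some were picked after their values were seen. For a repeated symbol, the row of highest mean FPKM was taken.

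By the labels, a group and number name 1 animal in all 5 regions. Deviations from the region means of the same animal correlated across genes at 0.136 to 0.255 between regions 3 and 4, 0.0224 to 0.180 between regions 3 and 5 and -0.088 to 0.105 between regions 4 and 5. Between regions 1 and 2 they correlated at 0.413 to 0.768. The white matter libraries of an animal are thus not independent, and the main fits used no animal block. Control and stimulated animals share only a number. Alternatives were 2 other pseudocounts, no filter, upper-quartile scaling, quantile normalization, eBayes without trend, a replicate block and leaving out each animal, with 4 others added after the data had been seen.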

Additional observations from a re-analysis of the deposited data

Results flagged for a closer look

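In groups of 4 libraries, the highest or lowest library was set against the others by Dixon's criterion. Of 50 groups (10 genes in 5 regions), 18 were at the floor in all libraries and could not meet it, and 2 of the other 32 did, where chance gives about 1 in 20. Pax8 in region 1 was at 0.264 FPKM in stimulated animal 2 and at the floor of 0.1 in the other 3 libraries, so that its gap filled the range whatever its value. Gata2 in region 2 was at 0.381 FPKM in stimulated animal 1 and at 0.714, 0.719 and 0.757 in the others.

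The stimulation effect on 2 genes pointed in opposite directions in different cord regions, with no overlap of the animals in either region. For Pax2, the log2 difference of stimulated from control animals was larger by 0.39 in region 3 than in region 5 and by 0.61 in region 4 than in region 5. For Pax8 it was larger by 0.56 in region 4 than in region 5. An interaction contrast in a limma model of all 20 libraries gave an adjusted p of 1 for each of the 3, so none is shown to differ.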

How the results depend on the processing

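The number of members called depended most on the filter, since only 5 of 10 pass it. Without it, the numbers were 9 for cord against white matter, 1 for region 5 against 4 and 5 for region 5 against 3. With genes above the floor in at least 4 libraries, they were 9, 1 and 6, and 8 for region 3 against 4. Of the 19999 genes in that fit, 8346 were higher and 4739 lower in cord than in white matter. For region 5 against 4 these were 888 and 210, for region 5 against 3 448 and 248, and for region 3 against 4 1945 and 1182. Relative to the neuron genes, the median of all genes moved to -0.52 for region 3 against 4 and -0.39 for region 5 against 4 (-0.54 and -0.53 without the filter). With the filter, 243 of 15210 genes were called higher and 11336 lower in the first, and 24 and 9686 in the second. No count of members is given here for cord regions with the filter. Lhx5 entered it through region 3 alone and Lmx1b through regions 3 and 5. Lbx1, Pax2 and Pax8 were above 1 FPKM in every cord library and are named instead. With the cord libraries alone and the filter, each was called for region 5 against 3, with limma adjusted p of 0.0422, 0.00832 and 0.0133. Of all genes in that fit, 1990 were higher and 580 lower. Without the filter, Lhx1, Lhx5, En1 and Lmx1b lost their calls there, Pax2 kept its call and Pax8 gained one. Over the alternatives, each as a single change, the limma adjusted p for region 5 against 3 ran from 0.0106 to 0.271 for Lbx1. For Pax2 it ran from 0.000973 to 0.157 and for Pax8 from 0.00862 to 0.380. For region 3 against 4 the ranges were 0.000579 to 0.0498, 0.000190 to 0.227 and 0.000413 to 0.401 for Lbx1, Pax2 and Pax8. With the filter and 1 animal left out in turn, Lbx1 and Pax2 kept their calls for region 3 against 4, unlike without it. Pax8 kept its call there only without stimulated animal 2. For region 5 against 3, Lbx1, Pax2 and Pax8 were called only without stimulated animal 2. Over these fits, 390 to 2518 of all genes were higher and 133 to 2391 lower for region 3 against 4. For region 5 against 3, 36 to 821 were higher and 17 to 416 lower. With the animal as a replicate block and the filter, Lbx1 passed the threshold for region 5 against 3. In that fit 616 of all genes were higher and 311 lower. For stimulation, where numbers are shared by different animals, the replicate block and the crossed pairs gave 0 in every region. Same-numbered libraries correlated at 0.321 in region 4 and -0.213 in region 1. The causes were not tested.

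Directions turned only for differences that had not passed the threshold. On the scale relative to the neuron genes, whose shift applies to all genes alike, region 3 against 4 was -0.39 for Gata2 and -0.29 for Gata3, and region 5 against 4 was -0.25 for Lbx1, -0.20 for Lmx1b, -0.46 for Pax2, -0.30 for Pax8, -0.48 for Lhx1, -0.096 for Lhx5, -0.41 for Gata2 and -0.43 for Gata3. Upper-quartile scaling gave -0.086 for Pax2 and -0.044 for Lhx1 there. With each animal left out in turn, that comparison ran from -0.064 to 0.21 for Pax2 and from -0.012 to 0.15 for Lhx1, and region 5 against 3 from -0.11 to 0.026 for Gata2 and from -0.30 to 0.062 for Gata3. Stimulation in the cord mean ran from -0.34 to 0.059 for Lbx1, -0.026 to 0.55 for Lmx1b, -0.13 to 0.0076 for Pax8, -0.099 to 0.14 for Lhx1, -0.095 to 0.16 for Lhx5 and -0.31 to 0.20 for En1. Most members lie near 1 FPKM, and 2 animals per arm limit what stimulation can show.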
